A study of Arabidopsis thaliana with 4 samples.

Results

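The Casparian strip genes described here are 8 loci of *Arabidopsis thaliana* that build or position the ring of lignin sealing the cell walls of the root endodermis. They were taken from the files by locus number, as 8 of 33664 features. They are *CASP1* (AT2G36100), *CASP2* (AT3G11550), *CASP4* (AT5G06200), *CASP5* (AT5G15290), *ESB1* (AT2G28670), *PER64* (AT5G42180), *MYB36* (AT5G57620) and *SGN3* (AT4G20140, listed as *GSO1* in the reference annotation). Poly(A) RNA was sequenced from whole Col-0 seedlings 9 days old, with 2 libraries of the mutant trm4b-4 and 2 of the wild type, all grown on MS plates at 23 ± 2 °C under a cycle of 16 h light and 8 h dark. The mutant carries an allele of *TRM4B* (AT2G22400), a gene for an RNA 5-methylcytosine methyltransferase, which the titles spell trm4b-4 and the genotype field tm4b-4. No sorting or dissection was described, so the endodermis is one of many tissues in each library. Whether each library is a separate culture is not on the labels, and the p-values therefore reflect library-to-library spread that could be technical.

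In the root, water and ions can travel through the cell walls of the outer tissues until they reach the endodermis, where the Casparian strip closes that path. The transcription factor MYB36 switches on the strip genes as endodermal cells differentiate. The CASP proteins, which span the plasma membrane, form a platform under the future strip and gather the wall enzymes there, among them the peroxidase PER64 and the dirigent-like protein ESB1. The receptor kinase SGN3 perceives small sulfated peptides that leak past gaps in the strip until it is sealed.

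The 4 *CASP* genes are related in sequence, which bears on whether reads can be told apart. *CASP2* and *CASP4* were closest, with 80.6% identical bases in their aligned coding sequences (TAIR10.1), and *CASP4* and *CASP5* were farthest apart at 54.6%. *CASP1*, the highest expressed, was 65.7% identical to *CASP2*. The longest run of identical bases between any pair of the 4 transcripts was 20, in *CASP2* and *CASP4*. The stretch of 60 coding bases in which all 4 agree best is written out here in the coding direction from RefSeq's TAIR10.1 genome, because it is where the genes are hardest to tell apart. Capitals mark the 39 bases that all 4 share.
CASP1: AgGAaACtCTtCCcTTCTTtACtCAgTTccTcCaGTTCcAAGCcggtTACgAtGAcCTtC
CASP2: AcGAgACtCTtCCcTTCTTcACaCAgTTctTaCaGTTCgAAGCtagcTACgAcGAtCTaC
CASP4: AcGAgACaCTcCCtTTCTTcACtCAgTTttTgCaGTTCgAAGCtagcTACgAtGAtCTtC
CASP5: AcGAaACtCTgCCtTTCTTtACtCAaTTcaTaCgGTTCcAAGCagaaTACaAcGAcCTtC
The shared bases are scattered through the stretch in short runs.

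The files hold FPKM, fragments per gene length and per library total, so levels are compared between genes per length, with lengths recovered from the values that match no transcript length of these genes in TAIR10.1. The level of the targeted gene did not mark the mutant as a loss of transcript. In the libraries labelled trm4b-4, *TRM4B* stood at 86.3 and 87.1 FPKM, against 29.7 and 28.9 FPKM in wild type (log2 change 1.53 on the log2(FPKM + 1) scale, limma adjusted p = 2.4e-08). Its paralog *TRM4A* had 3.14 and 2.64 FPKM in them, against 1.65 and 1.55 FPKM in wild type (0.58, adjusted p = 0.00554). Every direction given here therefore refers to the genotype on the label. A value per gene cannot show where along *TRM4B* the reads lay. The libraries held between 21931590 and 26390263 counted fragments.

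Levels across the 4 libraries spanned a wide range. *CASP1* averaged 24.3 FPKM and stood above 72.3% of the 19027 genes tested. *PER64* (8.11 FPKM) and *CASP2* (7.26) followed, with ranges over the libraries that overlapped. *SGN3* (4.46) was next. *MYB36* (2.78) and *CASP4* (2.62) came after it and overlapped each other. *CASP5* averaged 0.987 FPKM, above 0.836% of tested genes, and *ESB1* 0.0588 FPKM, below every tested gene.

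**Figure D1:**
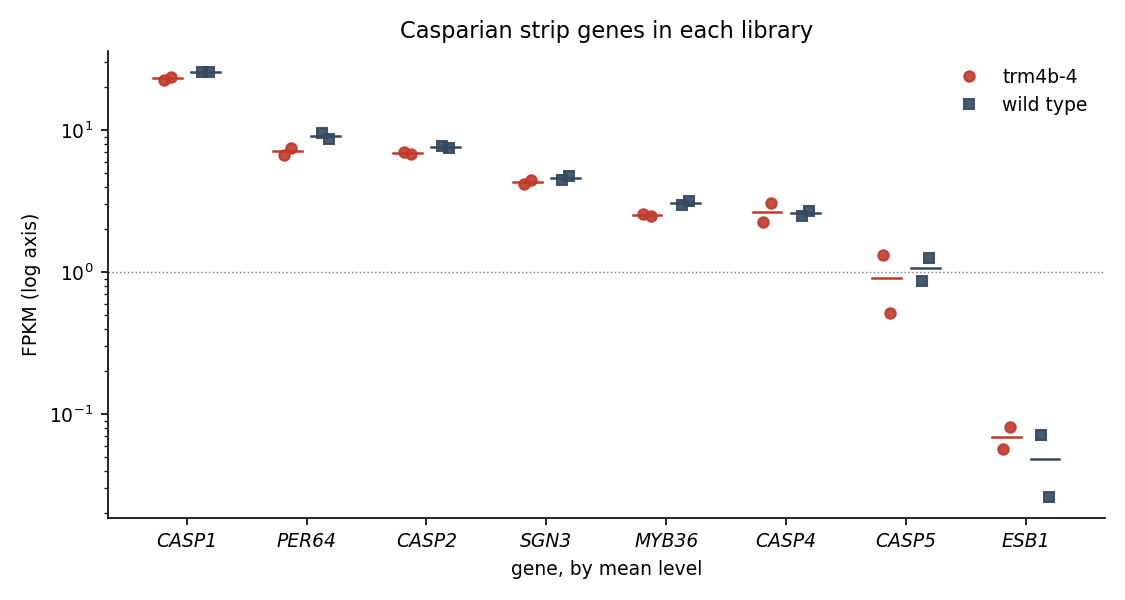
FPKM (log axis) of the 8 Casparian strip genes in each library, with 2 trm4b-4 libraries (circles) left of 2 wild-type libraries (squares); short lines are means and the dotted line is 1 FPKM. *CASP1* is the highest gene in every library and *ESB1* the lowest, and the 3 highest genes have both trm4b-4 points below both wild-type points.

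Of the 8 genes, 7 passed the filter of 1 FPKM in at least 2 of the 4 libraries, and *ESB1* did not. In the libraries labelled trm4b-4, *PER64* was lower than in wild type and none of the other 6 tested genes passed the threshold, an adjusted p under 0.05 in limma's moderated test on log2(FPKM + 1). That is 1 of 7 called, where 34.3% of all tested genes were called and 15.1% of all tested genes were called lower. Median-of-ratios scaling turned the balance of all calls, with 2964 genes higher and 3340 lower, against 3648 higher and 2882 lower here. The log2 change was below 0 for 6 of the 7 genes, where 43.4% of all tested genes were below 0. Both trm4b-4 libraries lay below both wild-type libraries in 4 of the 7 genes (*CASP1*, *CASP2*, *PER64* and *MYB36*), where 29.0% of all tested genes did so, and above both in 0 of the 7, where 39.4% of all tested genes did. The median log2 change of the 7 genes was -0.13 and that of all tested genes 0.031. In bulk seedlings, fewer endodermal cells and less RNA per endodermal cell cannot be told apart.

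*MYB36*, the regulator, lies on chromosome 5 at 23334767 to 23336632 on the plus strand (TAIR10.1), in 3 exons. It had 2.56 and 2.46 FPKM in the trm4b-4 libraries, against 2.96 and 3.15 FPKM in the wild-type libraries. Both trm4b-4 values were below both wild-type values. The log2 change was -0.21 (SE 0.099, 95% interval -0.44 to 0.020) and did not pass the threshold (limma adjusted p = 0.144). At this level the libraries held 71 and 72 *MYB36* fragments in trm4b-4 and 99 and 95 in wild type.

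The CASP scaffold genes differed more among themselves than between genotypes. *CASP1* (chromosome 2, 15159591 to 15160799, minus strand) had 22.4 and 23.8 FPKM in the trm4b-4 libraries, against 25.5 and 25.6 FPKM in the wild-type libraries. The groups did not overlap, and the log2 change of -0.14 (SE 0.048, 95% interval -0.25 to -0.031) missed the threshold (limma adjusted p = 0.0519). This is the member closest to the threshold on the far side, and it passed it in 4 of 12 alternative analyses. *CASP2* (chromosome 3, 3638178 to 3639348, plus strand) had 7.06 and 6.81 FPKM in trm4b-4 and 7.74 and 7.42 FPKM in wild type. Its groups did not overlap either, but the change of -0.11 had an interval of -0.28 to 0.056 (limma adjusted p = 0.274).

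*CASP4* (chromosome 5, 1877134 to 1878324, plus strand) had 2.25 and 3.06 FPKM in trm4b-4 and 2.49 and 2.69 FPKM in wild type. The wild-type values lay between the trm4b-4 values. Its change of 0.017 (95% interval -0.28 to 0.32) changed sign in 4 alternative analyses. *CASP5* (chromosome 5, 4967011 to 4968092, plus strand) had 1.31 and 0.519 FPKM in trm4b-4 and 0.861 and 1.26 FPKM in wild type, from 24 and 10 fragments in trm4b-4 and 19 and 25 in wild type. It passed the filter through a single library of each genotype. Its interval, -0.61 to 0.35, was the widest of the tested members.

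**Figure D2:**
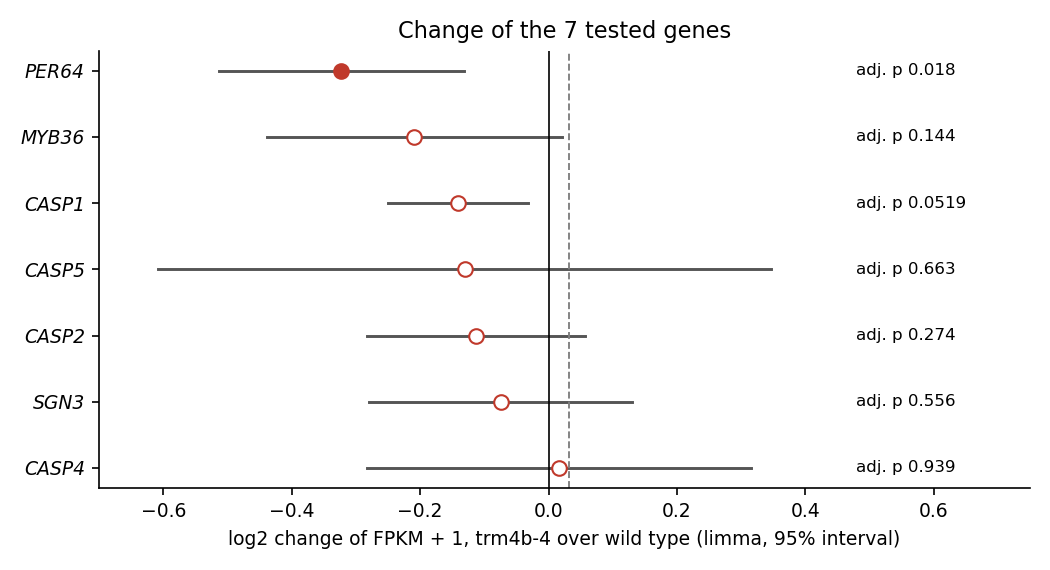
Log2 change of FPKM + 1, trm4b-4 over wild type, with limma's 95% interval for each of the 7 tested genes; the filled point passed the threshold, the dashed line is the median of all tested genes (0.031), and adjusted p-values stand at the right. Only *PER64* is filled, *CASP1* has an interval that ends just below 0, and *CASP4* sits at 0.017.

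The make-up of the transcripts of these 4 *CASP* genes overlapped between genotypes. Summed over the 4 genes, the libraries held 33.0 and 34.2 FPKM in trm4b-4, against 36.6 and 37.0 FPKM in wild type. The summed levels did not overlap. In 29.0% of all tested genes both trm4b-4 libraries lay below both wild-type libraries. Most of the sum came from *CASP1*, itself not called. *CASP1* made up 67.9% and 69.6% of that sum in trm4b-4 and 69.7% and 69.3% in wild type. *CASP2* made up 21.4% and 19.9% in trm4b-4 and 21.2% and 20.1% in wild type. *CASP4* and *CASP5* together made up the rest, and for each of the 4 genes the shares of the genotypes overlapped. These shares rest on the gene lengths behind the FPKM. For *CASP4* that length was 609 bases, equal to its coding length of 609 and short of its annotated transcript of 1016, whereas for *CASP1* it was 855 of 904 transcript bases.

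**Figure D3:**
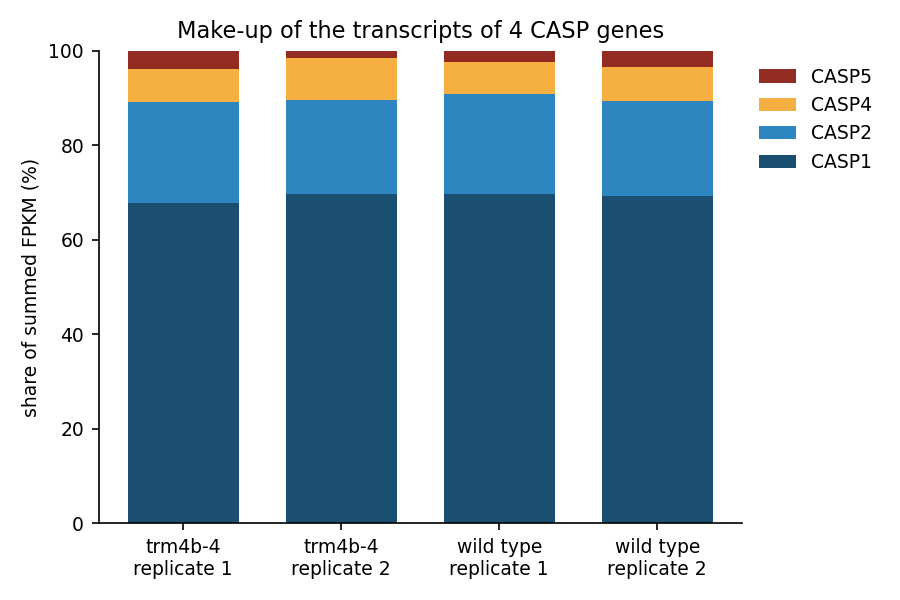
Share of each *CASP* gene in the summed FPKM of the 4 genes, in the 2 trm4b-4 libraries and the 2 wild-type libraries. *CASP1* takes between 67.9% and 69.7% in every library.

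*PER64*, the peroxidase that couples lignin units at the strip, was the only member called lower. It lies on chromosome 5 at 16852628 to 16854224 on the plus strand, in 4 exons. It had 6.72 and 7.48 FPKM in the trm4b-4 libraries, against 9.56 and 8.69 FPKM in the wild-type libraries. Both trm4b-4 values were below both wild-type values, by more than the distance between libraries of a genotype. The mean was 7.10 ± 0.539 FPKM in trm4b-4 and 9.12 ± 0.614 FPKM in wild type (SD, n = 2 each), a ratio of 0.778. The log2 change was -0.32 (SE 0.082, 95% interval -0.51 to -0.13, limma adjusted p = 0.0180). The fragments behind these values numbered 181 and 212 in trm4b-4 and 310 and 254 in wild type.

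The call of *PER64* depended on which libraries and genes were used. It was kept in 9 of 12 alternative analyses and lost without the filter on low values (adjusted p = 0.0551), without trm4b-4 replicate 1 (log2 change -0.25, adjusted p = 0.0817) and without wild-type replicate 1 (-0.26, adjusted p = 0.105). Its change stayed below 0 in all 12. The last 34 exonic bases of *PER64* overlap AT5G42190 (*ASK2*, a subunit of ubiquitin ligases) on the opposite strand, 2.76% of its exonic bases. *ASK2* had 51.5 and 57.2 FPKM in trm4b-4, against 64.8 and 64.6 FPKM in wild type (log2 change -0.25, limma adjusted p = 0.00526). Whether reads of the overlap were assigned by strand is not given in the sources used here; its part in the result was not tested.

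The 250 bases before the annotated start of *PER64* and of *CASP1* are shown from RefSeq's TAIR10.1 genome, since the first is the only member called and the second is the highest expressed. Both are written 5′ to 3′ in the direction of transcription, and capitals mark the letters TATAAA, the core of a TATA box.
PER64 (chr5:16852378-16852627, plus strand): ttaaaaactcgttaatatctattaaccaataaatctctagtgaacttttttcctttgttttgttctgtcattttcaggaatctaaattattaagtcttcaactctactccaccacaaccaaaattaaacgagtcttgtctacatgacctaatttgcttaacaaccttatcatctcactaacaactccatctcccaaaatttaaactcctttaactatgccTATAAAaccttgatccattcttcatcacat
CASP1 (chr2:15160800-15161049, minus strand): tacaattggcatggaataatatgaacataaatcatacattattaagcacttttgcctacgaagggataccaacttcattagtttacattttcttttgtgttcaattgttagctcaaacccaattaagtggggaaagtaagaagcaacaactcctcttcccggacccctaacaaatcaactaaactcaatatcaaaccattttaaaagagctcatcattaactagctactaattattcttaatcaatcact
In *PER64* the letters begin 30 bases before the start. In *CASP2* they begin 32 bases before it. They are not in this window in *CASP1*, *CASP4* or *MYB36*. On either strand, TATAAA was found in 5 of the 8 windows, where 47.3% of the 27432 windows of protein-coding genes hold it. ACCNACC, the letters of the AC element bound by MYB factors of lignin genes, was searched on both strands and found in 0 of the 8 windows, where 6.09% of all windows hold it. A match or its absence describes these letters only.

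*ESB1*, the dirigent-like protein without which the strip is patchy, was near the floor of detection in both genotypes. It had 0.0569 and 0.0811 FPKM in trm4b-4, against 0.0709 and 0.0262 FPKM in wild type, from 2 and 3 fragments in trm4b-4 and 3 and 1 in wild type. The ratio of the summed fragments, scaled to the library totals, was 1.39, with an exact 95% counting interval of 0.300 to 7.02. These few fragments fix neither the direction nor the size of a difference. *ESB1* lies on chromosome 2 at 12300265 to 12302358 on the minus strand. AT2G28671 runs on the plus strand at 12300203 to 12302036 and covers 1459 of the 1731 exonic bases of *ESB1* (84.3%) and all 1311 of its coding bases. AT2G28671 itself was listed at 0 in both trm4b-4 libraries and at 0 and 0.0229 FPKM in wild type, so both genes of the pair were at or near 0.

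Protein-coding genes overlapped to that extent were often low in these files. Of 364 protein-coding genes with over 80% of their exonic bases under a gene on the opposite strand, 149 (40.9%) reached 1 FPKM in at least 2 libraries, and the median level was 0.312 FPKM. Of 20997 protein-coding genes with no exonic base under such a gene, 13876 (66.1%) did, with a median of 4.71 FPKM. The strand setting of the counting is not given in the sources used here, and the part of the overlap in the level of *ESB1* was not tested.

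**Figure D4:**
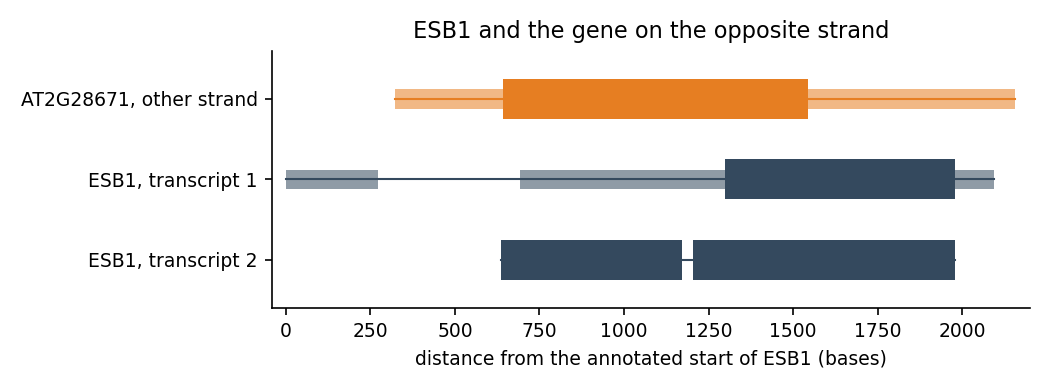
Exons (thin boxes) and coding parts (thick boxes) of the 2 annotated *ESB1* transcripts and of AT2G28671 on the opposite strand, by distance from the annotated start of *ESB1* in bases. AT2G28671 covers all of the *ESB1* coding sequence, and the first exon of transcript 1, 272 bases, is not covered.

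*SGN3*, the receptor kinase, lies on chromosome 4 at 10883921 to 10888270 on the plus strand. It had 4.20 and 4.45 FPKM in trm4b-4, against 4.44 and 4.77 FPKM in wild type. The groups overlapped by a small margin. The log2 change was -0.075 (95% interval -0.28 to 0.13, limma adjusted p = 0.556). At its end, 337 bases (7.88% of its exonic bases) overlap AT4G20150 on the opposite strand, which is expressed far more. AT4G20150 had 104 and 97.1 FPKM in trm4b-4, against 131 and 123 FPKM in wild type (log2 change -0.33, limma adjusted p = 0.000514).

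Genes that act with SGN3 gave a mixed picture: of 10 tested genes of the receptor pathway, 1 was higher and 1 lower, where 34.3% of all tested genes were called, and the median log2 change was 0.089. With any one library left out, only the lower gene was called, and the median was 0.053 to 0.065. In whole seedlings, not the endodermis alone, *RBOHD*, an NADPH oxidase that makes superoxide at the cell surface, was the lower gene. It had 28.5 and 27.8 FPKM in trm4b-4, against 52.9 and 50.7 FPKM in wild type (log2 change -0.86, limma adjusted p = 2.02e-06), and the call was kept in all 12 alternatives. Its relative *RBOHF*, the oxidase known to act at the strip, had a change of 0.012 and was not called. AT4G34600 had 26.2 and 25.7 FPKM in trm4b-4, against 23.3 and 23.3 FPKM in wild type (0.15, adjusted p = 0.0295), and kept that call in 5 of 12 alternatives. AT2G16385 had 3.40 and 3.23 FPKM in trm4b-4 and 3.53 and 2.43 FPKM in wild type (0.13, adjusted p = 0.508). *TPST*, which sulfates tyrosines of peptide hormones, had a change of 0.14 (adjusted p = 0.164).

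Of 9 tested genes listed as regulators of the endodermis, 1 was higher and 0 lower. Of all tested genes, 19.2% were higher and 15.1% lower. *SHR*, which moves from the stele into the endodermis, had 5.98 and 6.28 FPKM in trm4b-4, against 6.68 and 6.88 FPKM in wild type (log2 change -0.13, limma adjusted p = 0.245). *SCR*, its partner in the endodermis, had 10.05 and 10.06 FPKM in trm4b-4 and 10.3 and 9.95 FPKM in wild type, a change of -0.011 (adjusted p = 0.918). *SCL3*, a GRAS family protein of the endodermis that acts in gibberellin responses, was the higher gene. It had 5.14 and 5.89 FPKM in trm4b-4, against 3.94 and 4.33 FPKM in wild type (0.34, adjusted p = 0.0272), a call lost in 3 of 12 alternatives. The median log2 change of the 9 was -0.011.

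Of 12 tested genes for other wall and strip proteins, 3 were lower and 0 higher, where 15.1% of all tested genes were lower and 34.3% called in either direction, and the median log2 change was -0.11. With either wild-type library left out, 1 was lower. AT2G39430, of the dirigent-like family of *ESB1*, had 6.39 and 5.85 FPKM in trm4b-4, against 7.96 and 8.48 FPKM in wild type (-0.37, limma adjusted p = 0.00793). AT3G55230, of the same family, had 15.8 and 15.8 FPKM in trm4b-4, against 19.8 and 18.4 FPKM in wild type (-0.25, adjusted p = 0.00879). Each kept its call in 11 of 12 alternatives. *EXO70A1*, an exocyst subunit needed to position the CASP domain, had a change of -0.12 (adjusted p = 0.0448) and kept the call in 5 of 12. The laccase *LAC3* was at -0.19 (adjusted p = 0.0569) and the copper protein *UCC1* at -0.16 (adjusted p = 0.108), and neither was called. Of the 12 genes, 9 were below 0, where 43.4% of all tested genes were. The 3 above 0 were *RCI3* (0.097), AT4G13580 (0.035) and AT5G50150 (0.0029), none of them called.

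Of the enzymes that make and couple the lignin units, 9 of 18 tested monolignol and lignin genes were higher, where 19.2% of all tested genes were, and 0 lower, with a median log2 change of 0.12. Without the variance trend 5 were higher. *FAH1*, the hydroxylase that leads to syringyl units, had 85.0 and 81.8 FPKM in trm4b-4, against 56.1 and 54.4 FPKM in wild type (0.59, limma adjusted p = 7.2e-06). *CCOAOMT1* (0.21), *4CL1* (0.29) and *COMT1* (0.24), of the same route, also rose, with adjusted p of 0.000376, 0.000587 and 0.000623. These enzymes serve lignin in the xylem and soluble phenolics throughout the plant, so their levels in whole seedlings are not those of the endodermis. Of 15 tested suberin genes, 1 was lower, where 15.1% of all tested genes were, namely *KCS20*, an elongase of very long fatty acids (-0.11, adjusted p = 0.0273, kept in 7 of 12 alternatives), and the median was -0.0039.

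Among 28 tested CASP-like genes, the wider family of membrane proteins to which the CASPs belong, 6 were lower and 2 higher, with a median log2 change of -0.042. *CASPL2D1* had 15.9 and 13.9 FPKM in trm4b-4, against 21.1 and 22.8 FPKM in wild type (-0.53, limma adjusted p = 0.000787). *CASPL1E2* (-0.16), *CASPL2C1* (-0.30) and *CASPL5A1* (-0.20) were also lower. *CASPL1D1*, which had 55.1 and 57.4 FPKM in trm4b-4 against 42.0 and 43.9 FPKM in wild type (0.38, adjusted p = 0.000183), and *CASPL4A2* (0.32, adjusted p = 0.0391, kept in 3 of 11 alternatives) were higher. With 8 of 28 called, the family was near the 34.3% of all tested genes. It had 5 calls with trm4b-4 replicate 1 or either wild-type replicate left out, and without wild-type replicate 2 its median was 0.0046.

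**Figure D5:**
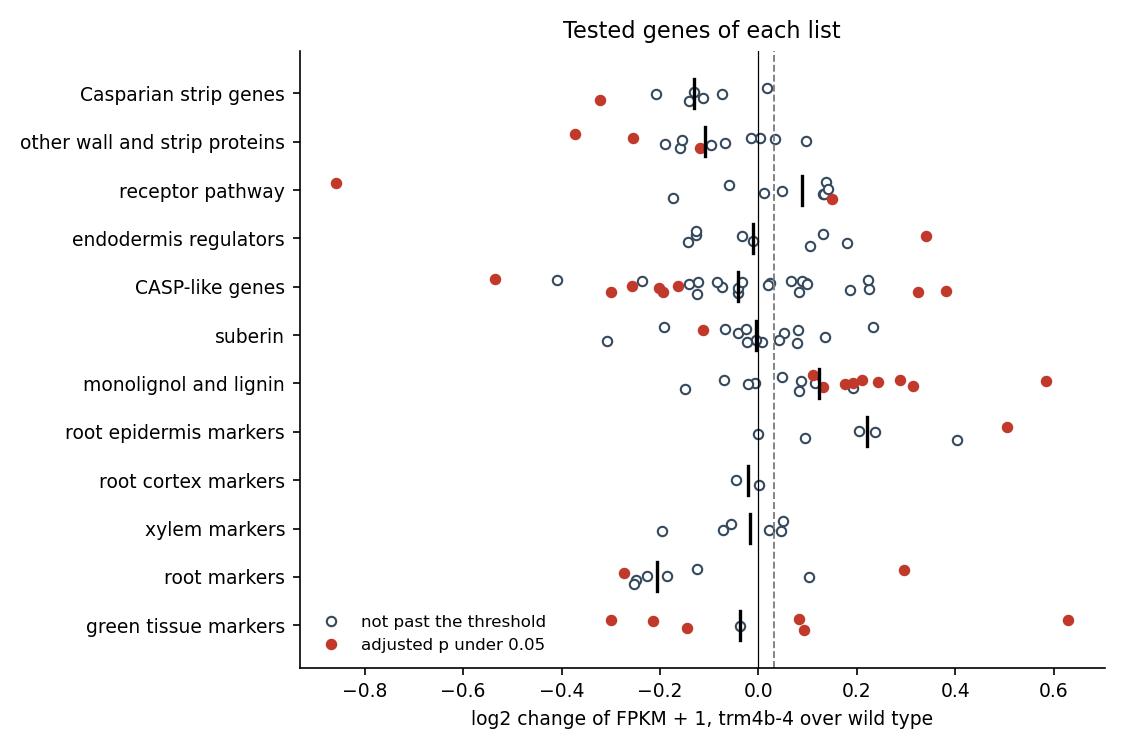
Log2 change of FPKM + 1, trm4b-4 over wild type, of each tested gene by list; filled points passed the threshold, short vertical lines are list medians and the dashed line is the median of all tested genes (0.031). The Casparian strip genes and the other wall and strip proteins lie mostly left of 0 (medians -0.13 and -0.11), and the monolignol and lignin genes mostly right of it (0.12). The medians of the root markers (-0.21) and the root epidermis markers (0.22) lie farther from 0 than these.

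Markers of whole organs and other root tissues moved with these values in part. Of 8 tested root markers 6 were below 0, 1 was called higher and 1 lower, with a median log2 change of -0.21, where 43.4% of all tested genes were below 0 and 34.3% called. The median was -0.11 without trm4b-4 replicate 1, and no marker was at 0 in all libraries. Over all 10 listed root markers, 2 of them not tested, levels summed to 1416 and 1412 FPKM in trm4b-4. In wild type they summed to 1712 and 1695 FPKM. Most of the sum came from *BGLU23*, a root beta-glucosidase of endoplasmic reticulum bodies. *BGLU23* had 1386 and 1380 FPKM in trm4b-4 and 1680 and 1662 FPKM in wild type. The other called root marker, *BGLU21*, was higher (0.30, limma adjusted p = 0.0244), a call lost in 4 of 12 alternatives. The 2 markers of the root cortex summed to 105 and 106 FPKM in trm4b-4, against 105 and 105 FPKM in wild type. The 6 root epidermis markers summed to 40.2 and 41.3 FPKM in trm4b-4, against 32.1 and 34.7 FPKM in wild type, with *PRP3*, a wall protein of root hairs, the only one called (0.50, adjusted p = 0.000383). The 6 xylem markers summed to 83.7 and 85.2 FPKM in trm4b-4, against 84.5 and 89.8 FPKM in wild type, and 0 were called. Of 7 green tissue markers, 3 were higher and 3 lower, where 34.3% of all tested genes were called, and without the variance trend 1 was higher and 2 lower. *LHCB2.1* (0.63), *PSAD1* (0.093) and *RBCS1A* (0.083) were higher, and *LHCB4.1* (-0.30), *RCA* (-0.21) and *PRK* (-0.15) lower, all genes of photosynthesis. *LHCB2.1* and *RBCS1A* have close copies elsewhere in the genome and are uncertain. After quantile scaling *RBCS1A* was at 0, a value that this scaling fixes for a gene of the same rank in every library. The part of a change in organ or tissue make-up in the levels of the strip genes was not tested.

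By the shape of its values over the 4 libraries, *PER64* was most like AT3G09032, with a root mean square difference of 0.00401 between centred log2(FPKM + 1) values. AT2G32160 (0.00919) and AT5G15870 (0.0157) came next. With 4 libraries such a likeness is common, as 1671 tested genes lay within 0.1 of *PER64*. Among the other members, *CASP1* ranked 1845th by this measure and *MYB36* 2041st, and *CASP5* was farthest at 16265th.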

How the data were processed

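Poly(A) RNA of whole seedlings was made into libraries with a directional kit (NEBNext Ultra Directional) and sequenced on a HiSeq, as the labels' protocols state. The deposited values are FPKM made by the authors, 1 table per library. The headers do not name the unit, and FPKM and RPKM look the same in such values. The tools, per the submitters' processing notes, were Cuffdiff, HTSeq 0.6.1, Cufflinks 2.1.1 and TopHat2 2.0.12, and the build was TAIR10. What each did, the strand setting and how multiply matching reads were counted are not given in the sources. Near-identical or overlapping genes are therefore uncertain.

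The low values gave whole fragments for all 24892 features above 0 (tolerance 2e-06 fragments plus a relative 3e-09), and library totals of 21931590 and 23068982 for trm4b-4 and 26390263 and 23782269 for wild type. Fragment numbers of members rest on the recovered gene length, with 2 possible lengths for *SGN3*. Intervals on fragments cover counting error only.

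The genes tested had 1 FPKM or more in at least 2 libraries. They were compared on log2(FPKM + 1) with limma 3.58.1 in R 4.3.3 (mean-variance trend, two-sided, no covariate, Benjamini-Hochberg adjustment over 19027 genes, threshold 0.05). A fold on this scale understates the change of low genes. The procedure was tested on simulated data, in which every changed gene differed by a larger fold than *PER64*. That test therefore does not cover changes of its size. Alternatives were another pseudocount, no filter or 5 FPKM, median-of-ratios or quantile scaling, no trend, voom on the recovered fragments, a replicate block and leaving out each library. Coding sequences were aligned with MAFFT 7.526. Positions and sequences are those of TAIR10.1 and were matched by locus.

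The members and lists were chosen with earlier results of these data known. Of the 9 members chosen, 1 is not reported here and is in none of the counts of members. Named genes are the other members, the targeted gene and its paralog, *SHR*, *SCR*, the peptide genes and *TPST*, up to 4 called genes per direction and list by adjusted p, and the 3 genes most like each called member. *RBOHF*, *LAC3*, *UCC1*, *RCI3*, AT4G13580 and AT5G50150 were named after their values were seen.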

Additional observations from a re-analysis of the deposited data

How the results depend on the processing

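The number of Casparian strip genes called, 1 of 7, was 0 of 8 tested without a filter on low values, 2 of 3 tested with a filter of 5 FPKM, and 2 of 7 with median-of-ratios scaling, without the variance trend and with the replicate block. Leaving out a library left a genotype with a single library, and the log2 change of *PER64* then ranged from -0.39 to -0.25. The share of all genes called was 21.7% without a filter, 41.6% with 5 FPKM, 33.1% with median-of-ratios, 25.8% without the trend and 35.6% with the block. *PER64* was the gene lost, and those gained were *CASP1* (filter of 5 FPKM, median-of-ratios, block, without trm4b-4 replicate 2) and *MYB36* (no trend). All members called in any of these were lower. Of 78 alternative values of members, 65 kept direction and call, 3 lost the call, 5 gained one and 5 reversed. The reversals were *CASP4* at -0.0068 (median-of-ratios), -0.022 (quantile), -0.15 (without trm4b-4 replicate 2) and -0.024 (without wild-type replicate 1), and *CASP5* at 0.17 (without trm4b-4 replicate 2). With a library left out *CASP4* ranged from -0.15 to 0.18, *CASP5* from -0.27 to 0.17 and *SGN3* from -0.12 to -0.031. Of 121 tested genes in the other lists, 33 were called, where 34.3% of all tested genes were. Without the trend 21 of the 121 were called, where 25.8% of all tested genes were. With a library left out *SCR* ranged from -0.034 to 0.013, above 0 without wild-type replicate 1, and AT2G16385 from -0.071 to 0.33, below 0 without wild-type replicate 2. The causes were not tested. The count over all genes, 6530 (median log2 change 0.031, or 0.0024 with median-of-ratios), ranged from 4677 to 5254 with a library left out and stayed within 1.5 times in the other alternatives. Replicate numbers are not said to pair libraries, and same-numbered deviations correlated at -0.0434. With the replicate block 6769 genes were called. Low fragment numbers limit what can be said of *ESB1* (9 fragments in all) and *CASP5*, and their cause was not tested.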
